A study of Mus musculus with 6 samples.

Results

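The BCL2 family of apoptosis regulators is described here through 10 genes, taken by symbol from a table of 21959 genes. They are the anti-apoptotic genes Bcl2, Bcl2l1 and Mcl1, the effectors Bax and Bak1, and the BH3-only genes Bid, Bad, Bcl2l11, Bbc3 and Pmaip1. All 10 passed the filter on low counts that left 11795 genes for testing. The comparison was between MPC, a mouse gastric adenocarcinoma line, and MPC-PTX, its paclitaxel (PTX) resistant derivative, which the study's text calls MTC and MTC-R. Each line was sequenced as 3 libraries, and the question was how RNA of resistant cells differs from that of the line they came from.

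Both lines carry the genotype CDH1-/-;Trp53-/-. They descend from gastric organoids of a C57BL/6 J mouse with Trp53 flox/flox, Cdh1 flox/flox and Mist1-CreER, a Cre driven by the promoter of a secretory cell gene and switched on by tamoxifen. The organoids were grown under the skin of nude mice before a line was derived. MPC is a monoclonal line, and MPC-PTX came out of more than 30 cycles of PTX, a drug that stabilizes microtubules, followed by another monoclonal selection. Each group is therefore 1 clone, so that resistance and a difference between clones cannot be told apart. The labels set none of the 6 libraries apart by batch. They do not say whether replicates were separate cultures, or whether libraries were prepared together. The p-values therefore measure only the spread between these libraries, which may be technical.

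The libraries held 16574580 to 23148182 counts. MPC replicate 3 stood apart. Its log2 ratio to the other MPC libraries fell with the GC content of transcripts (Spearman's rho -0.58) and rose with their length (rho 0.47), over genes that are not independent of each other. MPC replicates 1 and 2, each set against a rest that included replicate 3, had the opposite signs. Their rho was 0.47 and 0.35 with GC content and -0.43 and -0.21 with length. The biological coefficient of variation was 17.9% among MPC and 3.01% among MPC-PTX libraries. Epithelial markers were abundant. In edgeR, 7 of 7 were lower in MPC-PTX at an adjusted p below 0.05, against 15.6% of all tested genes. Their median log2 fold change was -0.82. Their summed CPM (each count scaled to an equal library size) was 9396 to 10884 in MPC and 5675 to 5864 in MPC-PTX. The defining genes of the gastric mucosa were nearly absent: the 8 listed summed to at most 0.361 CPM in any library, with Tff1, Tff2, Gkn2 and Pgc at 0 counts in all 6. Leukocyte markers summed to 9.32 to 12.5 CPM, nearly all of it Cd68, fibroblast markers to 8.63 to 10.7 CPM and endothelial markers to 3.06 to 4.73 CPM. The part of these differences in the results below was not tested. Of the genes deleted in both lines, Trp53 had 63 to 142 counts per library and a log2 fold change of 0.38 (standard error, SE, of 0.21, adjusted p = 0.228 in edgeR). With limma voom and sample quality weights, Trp53 was called higher, at 0.81 (adjusted p = 0.000668 in limma voom). Cdh1 had 2217 to 3068 counts and a log2 fold change of -0.01 (SE 0.06, adjusted p = 0.864 in edgeR), with a sign that turned positive under 2 alternatives. Counts over whole genes cannot tell whether the deleted exons gave reads.

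BCL2 family proteins decide whether the outer membrane of mitochondria is breached, the step that releases cytochrome c and commits a cell to apoptosis. The effectors BAX and BAK1 form the pores. Anti-apoptotic members hold effectors and BH3-only proteins in check, and BH3-only proteins respond to stress by occupying the anti-apoptotic members or by activating the effectors directly. A prolonged arrest in mitosis, as PTX produces, is known to run down MCL1 protein. RNA levels do not show protein levels, the binding between members or the phosphorylation that controls several of them, and in bulk RNA fewer cells of a type cannot be told apart from less RNA per cell.

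The stretches of 250 bases before the transcription start are shown for 3 members, 1 whose difference passed the test (Mcl1), 1 with the widest spread in MPC relative to its mean (Bcl2) and 1 whose levels differed least (Bcl2l11). They are from RefSeq on GRCm38.p6, and such windows were taken for 9 of the 10 members. Capitals mark matches to 6 motifs, each searched in both strands. The GC box was spelled GGGCGG, and the TATA box was spelled TATAAA. The E-box was searched as CACGTG, and the forkhead site as the letters GTAAACA. The cyclic AMP response element was the palindrome TGACGTCA, and the CCAAT box was its own name. A match on the other strand appears as the reverse complement, and no matches overlap in the 3 windows.
Mcl1, chr3:95658471-95658720, plus strand: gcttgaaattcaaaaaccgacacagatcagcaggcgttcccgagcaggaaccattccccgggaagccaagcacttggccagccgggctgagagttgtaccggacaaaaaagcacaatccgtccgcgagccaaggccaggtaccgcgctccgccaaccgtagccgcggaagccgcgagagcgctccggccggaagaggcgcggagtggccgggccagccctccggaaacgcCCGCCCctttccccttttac
Bcl2, chr1:106714291-106714540, minus strand: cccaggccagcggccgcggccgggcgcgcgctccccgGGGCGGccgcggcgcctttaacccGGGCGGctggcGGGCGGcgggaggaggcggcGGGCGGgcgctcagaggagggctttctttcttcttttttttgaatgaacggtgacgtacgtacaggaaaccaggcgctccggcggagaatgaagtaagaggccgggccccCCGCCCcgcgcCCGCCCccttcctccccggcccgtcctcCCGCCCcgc
Bcl2l11, chr2:128125788-128126037, plus strand: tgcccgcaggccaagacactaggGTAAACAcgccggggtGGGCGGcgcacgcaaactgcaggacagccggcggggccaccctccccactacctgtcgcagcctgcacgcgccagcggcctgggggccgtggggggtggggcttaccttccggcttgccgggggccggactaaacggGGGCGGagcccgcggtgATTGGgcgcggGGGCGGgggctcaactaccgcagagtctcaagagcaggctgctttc

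The Mcl1 window held 1 GC box, that of Bcl2 held 7, and the Bcl2l11 window shown held 3 beside 1 CCAAT box and 1 forkhead match. Another window of Bcl2l11, at 128127325 to 128127574, held 2 GC boxes and 2 CCAAT boxes but no forkhead match. Over the 15 windows of the 9 members, 10 (66.7%) had a GC box, against 32.7% of all 32851 windows of the same length. By member, 7 of the 9 had a GC box in at least 1 window. Pmaip1 was left out of the search, so these counts do not cover it. The windows are not independent, since some members had more than 1 and windows of Bbc3 overlap. Their GC content, 47.6% to 81.6%, was not matched in the comparison. The windows of Bcl2l1 and Bak1 held none of the 6 motifs. The CCAAT box was in 33.8% of all windows and the forkhead letters in 3.17%. No TATA box, which 12.4% of all windows held, and no cyclic AMP response element (1.55%) was in any of the 15 windows, and the E-box (6.02%) was in windows of Bax and Bbc3. A match describes letters in a window and not a bound site.

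Levels were compared between genes as CPM per kilobase of exon, CPM divided by the length of the gene's exons. Mcl1 was the most abundant member in both lines, at 166.7 CPM per kilobase in MPC, a mean above the level of 97.8% of the tested genes. Bak1 followed with 43.9, Bcl2l1 with 34.5, Bid with 18.0, Pmaip1 with 14.7 and Bax with 9.56 CPM per kilobase. Bcl2 (4.97), Bcl2l11 (4.35), Bbc3 (1.88) and Bad (1.66) were the least abundant, with Bad above only 20.3% of the tested genes. MPC-PTX had the same order of means. In MPC the libraries of neighbours overlapped for Bak1 and Bcl2l1, Bid and Pmaip1, Pmaip1 and Bax, Bcl2 and Bcl2l11, and Bbc3 and Bad. In MPC-PTX they overlapped for Pmaip1 and Bax and for Bbc3 and Bad (2.16 and 1.78 CPM per kilobase). Among the anti-apoptotic genes Mcl1 thus stood far above Bcl2l1 and Bcl2 in RNA, and of the effectors Bak1 stood above Bax in all 6 libraries.

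**Figure D1:**
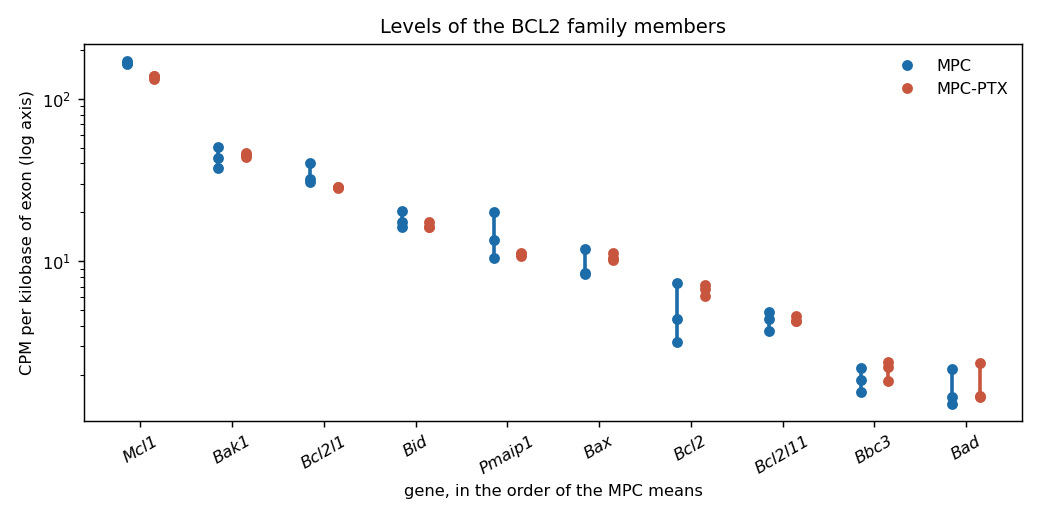
Level of each BCL2 family member in CPM per kilobase of exon (log axis) in the 3 libraries of MPC and of MPC-PTX, with members ordered by their mean in MPC. Mcl1 lies above all other members in all 6 libraries, and Bbc3 and Bad lie lowest.

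Of the 10 members, 1 was lower and 0 were higher in MPC-PTX at an adjusted p below 0.05 (edgeR, quasi-likelihood F-test, Benjamini-Hochberg). The same test called 15.6% of all tested genes lower, 14.1% higher and 29.7% in either direction, so that 1 of 10 was a smaller share than in the table as a whole. At an unadjusted p below 0.05, edgeR gave 0 members higher and 2 lower, and DESeq2 gave 0 higher and 3 lower. The share of all tested genes at that threshold was not counted. In edgeR it was at least 29.7%, since every gene called at the adjusted threshold also passes the unadjusted threshold. By the study's own thresholds, a log2 fold change beyond 1 in size together with an unadjusted p below 0.05, which held for 8.11% of tested genes, 0 members passed in edgeR. The log2 fold changes of the members ran from -0.41 to 0.43 with a median of 0.02 (all genes 0.04), and their median size was 0.19 (all genes 0.24). The members' summed level was 1009 to 1080 CPM in MPC and 909.5 to 924 CPM in MPC-PTX. Mcl1 made up most of that sum, with means of 569.8 CPM in MPC and 466 CPM in MPC-PTX. By sign, 6 members had a positive log2 fold change and 4 a negative.

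Mcl1 (chromosome 3 of GRCm38, 95658788 to 95663176), the anti-apoptotic member with the shortest-lived protein, was the gene that fell. It measured 583, 561 and 566 CPM in MPC replicates 1 to 3 and 473, 452 and 472 CPM in MPC-PTX. Every MPC-PTX library lay below every MPC library, and the replicates of each line were close. The means were 569.8 ± 11.4 CPM (SD, n = 3) in MPC and 466 ± 11.5 CPM (SD, n = 3) in MPC-PTX, 1.22-fold apart, with a log2 fold change of -0.29 (SE 0.05, 95% interval -0.42 to -0.16, adjusted p = 0.00733 in edgeR). Its counts, 7945 to 11775 per library, were the deepest of the family, and MPC replicate 3 differed from the mean of the other MPC libraries by -0.02 on the log2 scale. The call held in 14 of 15 alternatives and was lost without MPC-PTX replicate 2, at a log2 fold change of -0.27 (adjusted p = 0.0572 in edgeR).

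Bcl2l1 (chromosome 2, 152780668 to 152831728), which encodes BCL-XL, measured 186, 148 and 141 CPM in MPC and 130.1, 131.5 and 131.3 CPM in MPC-PTX. All MPC-PTX values were below the lowest MPC value, yet most of the distance came from MPC replicate 1. The log2 fold change was -0.27 (SE 0.11, 95% interval -0.52 to -0.02), almost the size of that of Mcl1, but with an adjusted p of 0.0972 in edgeR it was not called. Without MPC replicate 3 it was -0.40 (adjusted p = 0.00167 in edgeR) and without MPC replicate 1 it was -0.14 (not called). With Mcl1 it was 1 of 2 members whose groups did not overlap downwards, against 22.7% of all tested genes. Upwards it was 0 members against 24.2%, and in either direction 2 of 10 against 46.9%.

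Bcl2 (chromosome 1, 106538178 to 106714274), the founding anti-apoptotic gene, measured 29.1, 40.4 and 67.0 CPM in MPC and 55.7, 65.8 and 62.1 CPM in MPC-PTX. The MPC-PTX libraries were alike, and MPC replicate 3 lay above all of them while the other MPC libraries lay below. The log2 fold change of 0.43 (SE 0.28, 95% interval -0.24 to 1.09) had an adjusted p of 0.299 in edgeR. Without MPC replicate 3 it was 0.76 (adjusted p = 0.00200 in edgeR), and without MPC replicate 1 it was 0.19 (adjusted p = 0.562 in edgeR). Bcl2 had the largest shift of that library among the members, 0.95 on the log2 scale above the mean of the other MPC libraries.

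**Figure D2:**
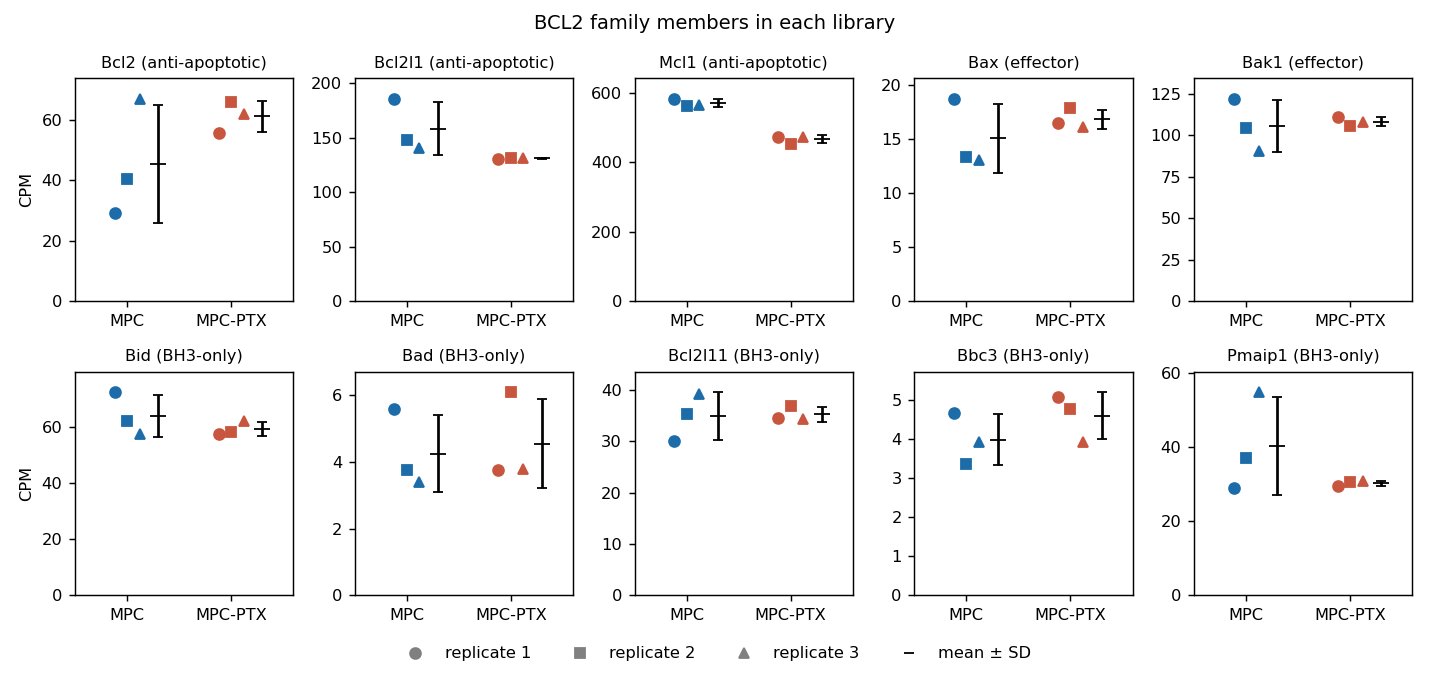
CPM of each member in every library, with replicates marked by shape and the mean ± SD (n = 3) beside each line; every axis starts at 0. Mcl1 and Bcl2l1 have no overlap between the lines, and the spread of Bcl2 and Pmaip1 in MPC is wide because replicate 3 lies high.

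The effector genes showed no difference that passed the test. Bax (chromosome 7, 45461697 to 45466898) measured 18.7, 13.3 and 13.1 CPM in MPC and 16.5, 17.8 and 16.2 CPM in MPC-PTX. MPC replicate 1 was above all MPC-PTX libraries and the other MPC libraries were below them, for a log2 fold change of 0.16 (SE 0.15, 95% interval -0.20 to 0.52, adjusted p = 0.466 in edgeR). Without MPC replicate 1 it was 0.35 (adjusted p = 0.0290 in edgeR), and without MPC replicate 3 it was 0.0211 (adjusted p = 0.907 in edgeR). Bak1 (chromosome 17, 27019810 to 27029009) measured 122, 104 and 90.6 CPM in MPC and 111, 106 and 108 CPM in MPC-PTX. The MPC libraries lay on both sides of the MPC-PTX libraries, and the log2 fold change was 0.04 (SE 0.11, 95% interval -0.22 to 0.29, adjusted p = 0.828 in edgeR). Within that interval neither a small fall nor a small rise of Bak1 was detectable. Bax shares its place with Gm45808 on the same strand and Bak1 with Ggnbp1 on the opposite strand, and since no strand setting is stated, reads of such overlapping genes cannot be told apart.

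The BH3-only genes also gave 0 calls of 5. Bcl2l11, which encodes BIM, an activator that binds all anti-apoptotic members (chromosome 2, 128126038 to 128162547), measured 30.1, 35.4 and 39.2 CPM in MPC and 34.5, 36.9 and 34.3 CPM in MPC-PTX. The groups overlapped throughout, with a log2 fold change of 0.01 (SE 0.11, 95% interval -0.24 to 0.27, adjusted p = 0.941 in edgeR), the smallest of the family. Pmaip1 on chromosome 18, which encodes NOXA, a partner of MCL1, measured 28.8, 37.0 and 54.7 CPM in MPC and 29.3, 30.5 and 30.8 CPM in MPC-PTX. MPC replicate 1 lay just below the MPC-PTX libraries and MPC replicate 3 far above them. The log2 fold change was -0.41 (SE 0.22, 95% interval -0.94 to 0.11, adjusted p = 0.206 in edgeR), and it was -0.60 (adjusted p = 0.0324 in edgeR) without MPC replicate 1 but -0.18 (adjusted p = 0.201 in edgeR) without MPC replicate 3.

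Bid (chromosome 6, 120891930 to 120916853), which caspase-8 cleaves to link death receptors to mitochondria, measured 72.2, 62.0 and 57.4 CPM in MPC and 57.4, 58.0 and 61.9 CPM in MPC-PTX. Its log2 fold change was -0.11 (SE 0.10, 95% interval -0.34 to 0.12, adjusted p = 0.428 in edgeR), and it was -0.24 (adjusted p = 0.0223 in edgeR) without MPC replicate 3 but -0.0159 (adjusted p = 0.884 in edgeR) without MPC replicate 1. Bid overlaps Bcl2l13 on the opposite strand. The remaining BH3-only genes were the shallowest members. Bad (chromosome 19, 6941861 to 6951899), held inactive by survival kinases, had 105, 73 and 71 counts in MPC and 88, 135 and 64 counts in MPC-PTX, or 5.58, 3.76 and 3.41 against 3.76, 6.08 and 3.80 CPM. Its single high library in each line left a log2 fold change of 0.11 (SE 0.27, 95% interval -0.52 to 0.73, adjusted p = 0.792 in edgeR), and it overlaps Gpr137 on the opposite strand. Bbc3 (chromosome 7, 16308393 to 16318205), which encodes PUMA, a classical p53 target, had 88, 65 and 82 counts in MPC and 119, 106 and 66 counts in MPC-PTX. That is 4.67, 3.35 and 3.94 against 5.08, 4.78 and 3.92 CPM, with a log2 fold change of 0.21 (SE 0.18, 95% interval -0.21 to 0.63, adjusted p = 0.411 in edgeR). Over the 15 alternatives the adjusted p ran from 1.59e-05 to 0.0572 for Mcl1, from 0.00167 to 0.232 for Bcl2l1, from 0.00200 to 0.562 for Bcl2, from 0.0121 to 0.907 for Bax, from 0.0223 to 0.884 for Bid and from 0.00689 to 0.371 for Pmaip1. For Bbc3 it ran from 0.0374 in limma voom, the 1 alternative that called it, to 0.780 in edgeR. The adjusted p stayed above 0.05 under every alternative run for Bak1, Bad and Bcl2l11.

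**Figure D3:**
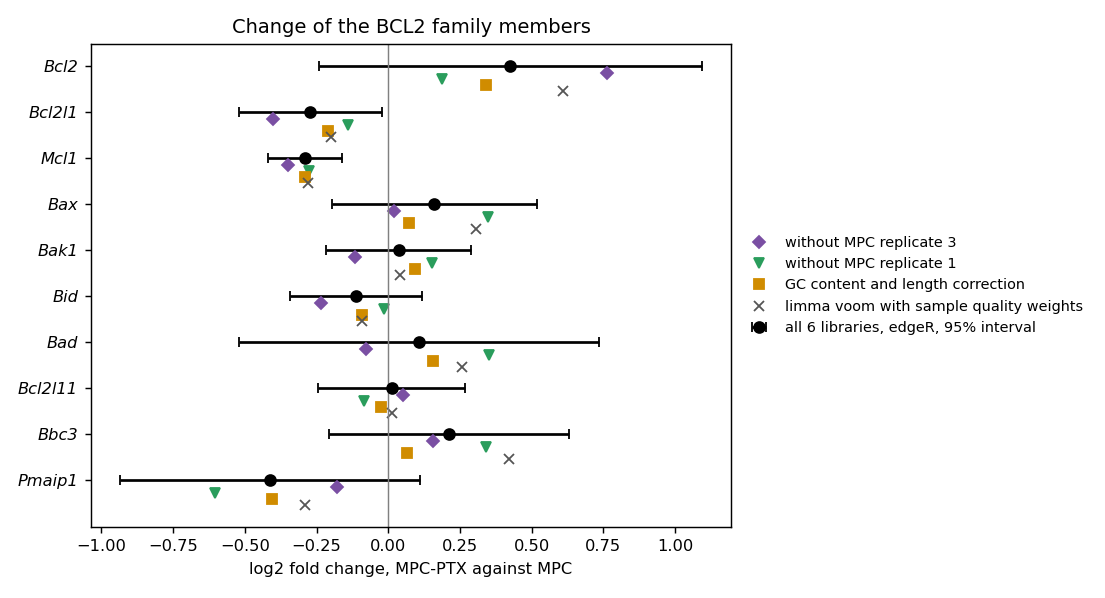
Log2 fold change of each member, MPC-PTX against MPC, with its 95% interval in edgeR's fit of all 6 libraries (circles) and the values of 4 alternatives: without MPC replicate 3, without MPC replicate 1, with the GC content and length correction, and with limma voom and sample quality weights. The interval of Mcl1 lies wholly below 0 and that of Bcl2l1 ends at -0.02, while the other 8 intervals include 0.

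The shift of MPC replicate 3 differed between members of low and of high GC content. Of the 4 members whose longest transcript had under 50% GC, 3 were higher in that library than in the mean of the other MPC libraries, Bcl2 by 0.95, Pmaip1 by 0.73 and Bcl2l11 by 0.26 on the log2 scale, and Mcl1 differed by -0.02. All 6 members over 50% GC were lower, from -0.03 for Bbc3 to -0.45 for Bad. Over all tested genes the median was 0.31 at 40 to 45% GC, 0.07 at 45 to 50% GC and -0.18 at 55 to 60% GC, so that Bcl2, at 46.3% GC, lay far above genes of its GC content. With each library corrected for GC content and length, 3 members were called lower, Mcl1 together with Bcl2l1 (log2 fold change -0.21) and Pmaip1 (-0.41), and 0 higher, while the calls over all tested genes rose to 41.6%. With limma voom and sample quality weights, MPC replicates 1, 2 and 3 had weights of 0.278, 2.87 and 0.154, so the MPC side rested mostly on replicate 2. In that fit Bcl2, Bax and Bbc3 were called higher and Bcl2l1, Mcl1 and Pmaip1 lower, and 64% of all tested genes were called. Without MPC replicate 3, Bcl2 was called higher and Bcl2l1, Mcl1 and Bid lower, against 52.5% of the genes then tested. Mcl1 was thus called in each of these 3 analyses, and Bak1, Bad and Bcl2l11 in none of them.

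**Figure D4:**
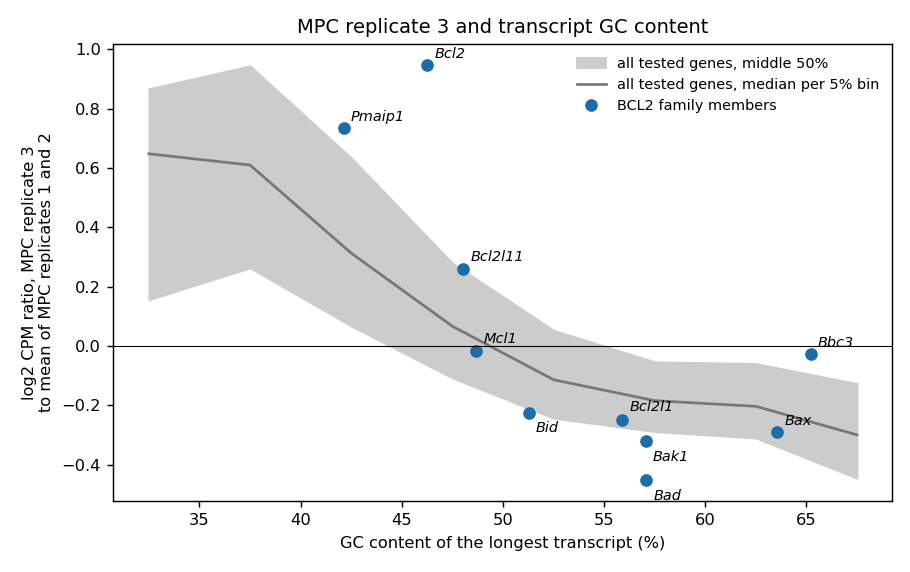
Log2 ratio of MPC replicate 3 to the mean of MPC replicates 1 and 2 against the GC content of the longest transcript, for the 10 members and as the median and middle 50% (shaded) of all tested genes in 5% bins of GC content. Bcl2 and Pmaip1, the highest points at 0.95 and 0.73, have 46.3% and 42.1% GC, and the members over 50% GC lie below 0.

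Ratios between members within a library do not depend on how libraries are scaled, and they are given as a description with no test. The ratio of Bax to Bcl2l1 per kilobase was -1.77, -1.93 and -1.88 on the log2 scale in MPC and -1.44, -1.34 and -1.48 in MPC-PTX. All MPC-PTX libraries had more Bax RNA relative to Bcl2l1, by 0.44 on average and by 0.40 to 0.49 with any library left out. The ratio of Bak1 to Mcl1 was -1.75, -1.92 and -2.14 in MPC and -1.58, -1.59 and -1.62 in MPC-PTX. These groups did not overlap either, with a difference of 0.34 on the log2 scale (0.24 to 0.43 with a library left out). The ratio of Bax to Bcl2, in contrast, ran from 0.19 to 1.90 in MPC and from 0.60 to 0.78 in MPC-PTX, and the sign of its difference of -0.33 turned with the library left out (-0.74 to 0.11). Groups overlapped for Bcl2l11 to Bcl2l1 (difference 0.28), Pmaip1 to Mcl1 (-0.07) and Bcl2l1 to Mcl1 (0.03). Members of a ratio with unlike GC content carry the shift of MPC replicate 3.

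Outside the 10 members, 17 further genes of the family were listed, and 11 passed the filter on low counts. In edgeR, 2 were higher and 2 lower at an adjusted p below 0.05, 7 were not called, and the median log2 fold change was 0.08. Bok, an effector-like member that acts independently of the anti-apoptotic genes, measured 58.7, 55.3 and 50.6 CPM in MPC and 72.8, 73.5 and 73.8 CPM in MPC-PTX. It rose without overlap, with a log2 fold change of 0.42 (SE 0.08, adjusted p = 0.00654 in edgeR), and was called under every alternative run. Bcl2l14 fell from 10.6, 13.1 and 12.6 CPM to 5.42, 7.89 and 6.53 CPM, a log2 fold change of -0.87 (SE 0.16, adjusted p = 0.00731 in edgeR) that was also called under every alternative.

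Bik, a BH3-only gene of the endoplasmic reticulum, was at the edge of detection with 16, 21 and 11 counts in MPC and 4, 8 and 3 in MPC-PTX. It fell with a log2 fold change of -1.74 (SE 0.46, adjusted p = 0.0273 in edgeR), a call that was lost without MPC replicate 2, MPC-PTX replicate 1 or MPC-PTX replicate 3 (adjusted p = 0.0971, 0.108 and 0.0959 in edgeR). Bnip1 measured 20.5, 20.3 and 17.5 CPM in MPC and 24.3, 23.5 and 25.7 CPM in MPC-PTX, with a log2 fold change of 0.33 (SE 0.10, adjusted p = 0.0381 in edgeR), and 12 of 15 alternatives lost the call. The genes not called in edgeR's main analysis were Bcl2l2, the anti-apoptotic BCL-W (log2 fold change 0.08), Bmf (0.08), Bcl2l12 (-0.27), Bcl2l13 (0.17), Bcl2l15 (-0.45), and the mitophagy receptors Bnip3 (0.30) and Bnip3l (-0.25). Alternatives that called Bnip3l lower included limma voom, the GC and length correction and leaving out MPC replicate 1 or 3. Bcl2l13 was called higher under limma voom, with library size alone and without MPC replicate 1. Bcl2l2, Bcl2l12 and Bcl2l15 overlap other genes of the table as well. Bcl2a1a, Bcl2a1b and Bcl2a1c had 0 counts in all 6 libraries, which allows up to 3 counts in each, and Bcl2a1d, Bcl2l10 and Hrk had at most 2.

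The genes around the family were counted in 4 further lists. Genes that passed are named although some lie under a log2 fold change of 0.5, and the latter were chosen after their values were seen. Downstream of the mitochondria, 3 of 23 tested genes were lower in edgeR, and the median log2 fold change of the list was 0.07. The caspase gene Casp6 (63.0, 81.0 and 76.7 CPM in MPC against 47.9, 45.6 and 48.7 CPM in MPC-PTX, log2 fold change -0.63, SE 0.10, adjusted p = 0.00419 in edgeR), the channel gene Vdac2 (-0.28) and Birc5, which encodes survivin (-0.23), fell. The calls of Vdac2 and Birc5 were lost in 3 and 4 of 15 alternatives, each with a library left out. Among regulators of the members, 0 of 13 tested genes were higher (1 at an unadjusted p below 0.05 in edgeR, 0 in DESeq2) and 2 were lower, Dynll1, whose product tethers BIM (-0.38), and Tmbim6, an inhibitor of BAX-driven death (-0.37), and the median was -0.00. The ligase genes Huwe1 and Fbxw7 and the deubiquitinase gene Usp9x, listed for MCL1, were not called in edgeR with all 6 libraries. However, limma voom called all 3 higher, and edgeR called Fbxw7 and Usp9x higher without MPC replicate 3. Trim17, also listed, had 3 to 7 counts per library and did not pass the filter on low counts.

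Death receptor genes, upstream of Bid, held the largest difference of the lists. Fas, the receptor of FASL, measured 0.744, 0.361 and 0.432 CPM in MPC and 2.95, 3.15 and 3.62 CPM in MPC-PTX, or 7 to 14 counts against 61 to 70. It rose 6.28-fold (95% interval 3.99 to 9.87), a log2 fold change of 2.65 (SE 0.28, adjusted p = 0.000609 in edgeR). Tnfrsf10b, the receptor of TRAIL, fell by 0.40 on the log2 scale, a call lost without MPC-PTX replicate 2 or 3, and the other 6 of 8 tested genes were not called, for a median of 0.08. Fasl had 0 counts in all 6 libraries and Bid was not called in edgeR's main analysis.

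Of 18 tested p53 target genes, 3 were higher and 4 lower in these lines that lack Trp53, with a median log2 fold change of 0.16. Gdf15, with 3 to 9 counts in MPC and 17 to 30 in MPC-PTX, rose by 1.83 on the log2 scale (adjusted p = 0.0123 in edgeR, and 0.0581 without MPC-PTX replicate 2). Sesn2 rose by 0.70 (adjusted p = 0.0180 in edgeR), a call lost without MPC replicate 2 or any single MPC-PTX library (0.0644 to 0.0778), and Zmat3 rose by 0.28. Ddit4 (-0.86), Btg2 (-0.55), Cdkn1a (-0.31) and Ei24 (-0.28) fell. Of these the call of Cdkn1a, at an adjusted p of 0.04999 in edgeR, was lost in 9 of 15 alternatives, that of Zmat3 in 6, the GC and length correction among them, and that of Ei24 in 4. The p53 targets within the family, Bbc3, Pmaip1 and Bax, had log2 fold changes of 0.21, -0.41 and 0.16 and were not called in edgeR's main analysis, while limma voom called all 3 and the GC and length correction called Pmaip1. Each list gave called shares near or below the 29.7% of all tested genes except that of p53 targets (7 of 18) and that of the other family genes (4 of 11), and no list was tested against other genes.

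**Figure D5:**
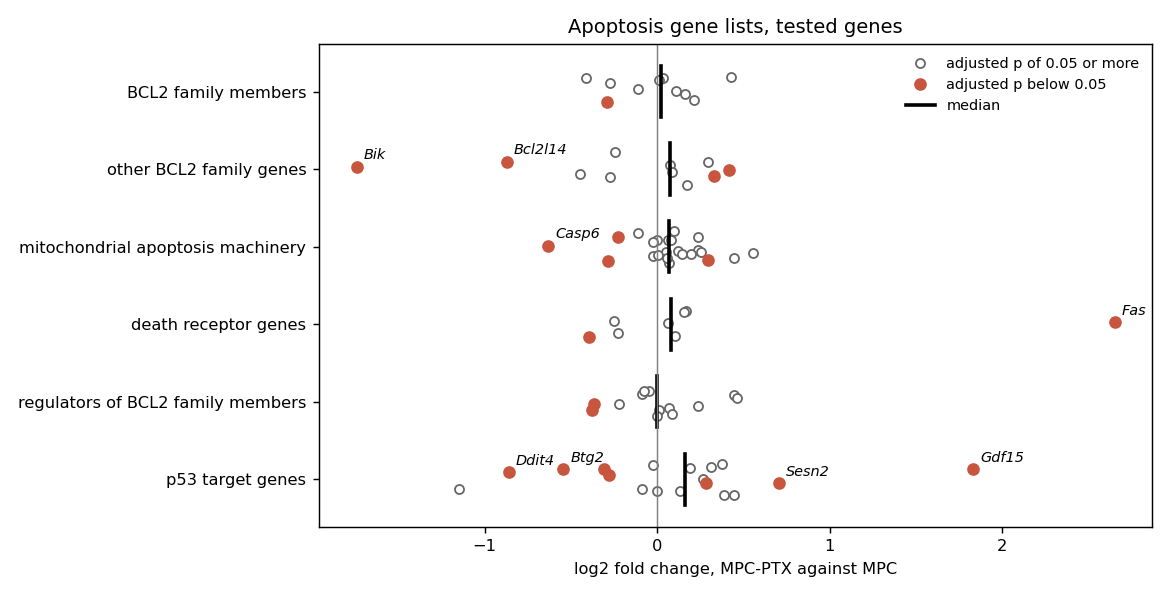
Log2 fold change, MPC-PTX against MPC, of every tested gene in the 10 members and the 5 lists around them, filled where the adjusted p was below 0.05 in edgeR, with the median of each list as a bar. The 10 members lie between -0.41 and 0.43 with 1 filled point, Mcl1, and Fas (2.65) and Gdf15 (1.83) lie farthest above 0 and Bik (-1.74) farthest below in the other lists.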

How the data were processed

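RNA of 3 MPC and 3 MPC-PTX libraries was measured by poly-A RNA-seq. The authors used fastp 0.22.0 for filtering and HISAT2 for mapping, and deposited raw read counts per gene. Genome release, annotation, counter and strand setting are not given in the sources used here, so counts of overlapping genes are uncertain. The columns of all 6 libraries were used.

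Counts were scaled with TMM, filtered with filterByExpr by group (minimum count 10) and tested with edgeR 4.0.16 (glmQLFit robust, glmQLFTest, R 4.3.3) over 11795 genes with Benjamini-Hochberg adjustment, and a gene was called at an adjusted p below 0.05. The standard error was derived from the F statistic. CPM use TMM-scaled library sizes. A count of 0 allows 3 counts, for counting error only. For 1 gene, exact permutation of 3 against 3 libraries (two-sided) reaches at best p = 0.1, so tests rest on the model across genes. The scripts were tested on simulated data.

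Exon length, GC content and positions came from GENCODE M21 (GRCm38) for 11776 tested genes, matched by Ensembl identifier, and promoters from RefSeq (GRCm38.p6). Alternatives were DESeq2 1.42.0, its size factors or library size alone, other count filters, limma 3.58.1 voom with sample quality weights, the replicate number as a block, a loess correction (span 0.3) for GC content and length, alone and with the block, and each library left out.

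Named were the 10 members, all other listed family genes, Trp53, Cdh1, and genes of the 4 further lists past an adjusted p of 0.05 and an absolute log2 fold change of 0.5. The members and lists were chosen with earlier results of these data known. 1 result of the mitochondrial apoptosis list is not reported here.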

Additional observations from a re-analysis of the deposited data

How the results depend on the processing

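Mcl1 kept its call in 14 of 15 alternatives (log2 fold change -0.35 to -0.25). limma voom with sample quality weights gave Bcl2 0.61, Bax 0.31, Bbc3 0.42, Bcl2l1 -0.20 and Pmaip1 -0.29, all called. The GC and length correction gave Bcl2l1 -0.21 and Pmaip1 -0.41, both called. The sign of Bcl2l11 turned under DESeq2 (-0.0223), its size factors (-0.0222), at least 10 counts in every library (-0.0192) and the GC and length correction without (-0.0242) and with the replicate block (-0.0223). Bmf turned to -0.0687 under voom and ran from -0.0572 to 0.197 with each library left out, and Cdh1 turned to 0.0242 with library size alone and 0.0114 under voom.

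Under voom, counts of calls moved to 6 members, 13 machinery, 6 death receptor, 9 regulator and 16 p53 target genes and to 4381 higher and 3170 lower genes in all, from 1, 4, 2, 2, 7, 1668 and 1841. The GC and length correction called 3 members, 8 machinery, 4 death receptor and 4 regulator genes. At least 10 counts in every library left 2 other family genes and 1 death receptor gene.

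Between libraries of the same replicate number, deviations from the group means correlated at 0.15, -0.02 and 0.17. The labels do not say whether such libraries were prepared together, and these correlations cannot decide it. With the number as a replicate block, edgeR called 1 member, Mcl1. With the block and the GC and length correction, it called 4 members, 8 machinery and 6 regulator genes and 2508 genes higher, with Bcl2 at 0.37, Bcl2l1 at -0.21 and Pmaip1 at -0.38.

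With each library left out, log2 fold changes ran from 0.19 to 0.76 for Bcl2, -0.40 to -0.14 for Bcl2l1, -0.35 to -0.27 for Mcl1, 0.0211 to 0.35 for Bax, -0.11 to 0.15 for Bak1, -0.24 to -0.0159 for Bid, -0.17 to 0.35 for Bad, -0.0838 to 0.0518 for Bcl2l11, 0.10 to 0.34 for Bbc3 and -0.60 to -0.18 for Pmaip1. Calls ran from 0 to 4 members, 2 to 6 other family, 1 to 9 machinery, 1 to 6 death receptor, 2 to 5 regulator and 2 to 12 p53 target genes, and from 804 to 3020 genes higher and 1077 to 3227 lower. The causes were not tested. Bad and Bbc3 had 64 to 135 counts in a library and Bik 3 to 21, and the part of depth in their spread was not tested.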
